A study of Homo sapiens with 16 samples.

Results

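The comparison set the late state of cells exposed to A0 against their first hour of exposure. It used 4 of the 16 arrays of the series, namely both arrays labelled A0 12 h and both labelled A0 1 h, chosen by their titles alone. The 4 arrays of A0 3 h and A0 6 h, 2 per time, served as steps between, and no control array entered. All 8 of these samples were HT1080, a human fibrosarcoma cell line, kept in complete growth medium with A0 at 25 µM. A0 is a copper(II) complex of a thioxotriazole ligand, according to the series title. Every group thus carried the drug, so the comparison shows how the response moved with time and cannot separate the drug from 11 further hours of culture and handling. Whether the paired arrays of a time came from separate cultures is not stated in the labels. The p-values therefore reflect array-to-array spread alone, and that spread may be purely technical.

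The series title links A0 to stress of the endoplasmic reticulum, the compartment in which secreted and membrane proteins fold. When unfolded proteins collect there, sensors in its membrane start the unfolded protein response, which raises chaperones, slows translation and, when prolonged, can turn towards cell death. Paraptosis, the form of death named in the title, is a death with swollen endoplasmic reticulum and mitochondria that does not need caspases. Copper is a cofactor of several enzymes and toxic in excess, and cells meet a surplus with metal-binding and redox-protective proteins.

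The probes are named only by GI numbers, an older kind of sequence record number, and 0 of the 23618 GI numbers could be paired with a gene in the tables used here. The 20 gene lists, with 438 entries, that had been drawn up for these pathways and for cell type markers therefore gave no values, and neither the pathways nor the label HT1080 could be set against marker genes. The results below describe transcripts by probe, and 4 probes are named. Of the 24350 probes, 8199 were detected, with a detection score of at least 0.99, on both A0 1 h arrays or on both A0 12 h arrays, and these were tested.

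Between 1 h and 12 h of A0, 1234 of the 8199 probes (15.1%) passed a limma adjusted p of 0.05. Of these, 542 (6.61%) were higher at 12 h and 692 (8.44%) were lower. The median change was 2.11-fold among the higher probes and 2.13-fold among the lower ones. It was 2.003-fold and 1.93-fold with each probe undetected on both arrays of its lower time counted at its bound. A further 61 higher and 64 lower probes were detected on only 1 of those 2 arrays and were given no bound. In normalised signal, 321 of the 542 at least doubled and 423 of the 692 at least halved, probes below detection included. Of the 542, 97 were undetected on both 1 h arrays, and the bound reached 2-fold for 26 of these. Of the 692, 205 were undetected on both 12 h arrays, and the bound reached 2-fold for 28. Large changes were more often rises: 47 probes were at least 4-fold higher and 19 at least 4-fold lower, and at 8-fold the counts were 19 and 1. Among probes detected on all 4 arrays, where both sides were measured, the counts were 26 and 11 at 4-fold and 12 and 1 at 8-fold. This inequality of the largest changes was not itself tested.

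Neither direction can be called the more frequent, because the split followed the scaling. Quantile normalisation gave the 542 and 692 above, with a median log2 change of -0.019 over all tested probes. Centring on the 75th percentile of the probes detected on all 8 arrays put that median at -0.12 and gave 292 higher and 621 lower. Centring on that percentile over all probes put it at 0.11 and gave 635 and 432, and the deposited processed values gave 643 and 525. At 8-fold, for probes detected on all 4 arrays, rises outnumbered falls under each of these scalings, by 12 to 1, 14 to 1, 17 to 1 and 16 to 1. With normexp background correction and an offset of 50 the counts were smaller, 19 rises and 3 falls at 4-fold and 4 and 0 at 8-fold.

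**Figure D1:**
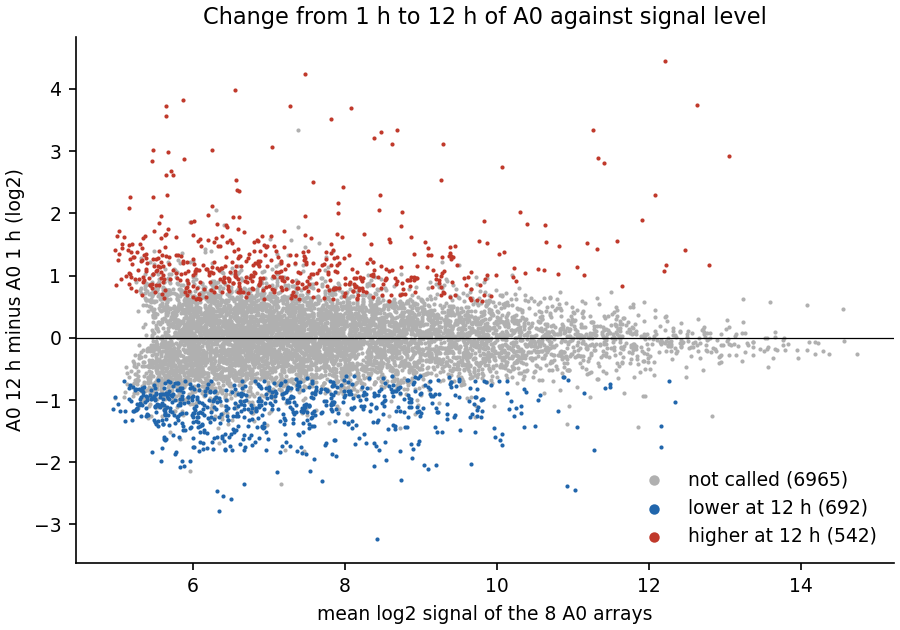
Each point is 1 of the 8199 tested probes, with its mean normalised log2 signal over the 8 A0 arrays on the x axis and its log2 difference, A0 12 h minus A0 1 h, on the y axis; red and blue mark the 542 higher and 692 lower probes past a limma adjusted p of 0.05. The rises reach 4.46 on the log2 scale, while the largest fall is -3.23.

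The count changed strongly when a single array at either end was left out. Without A0 1 h replicate 1 or replicate 2 only 35 probes passed, and without A0 12 h replicate 1 or replicate 2 the counts were 628 and 227. Each refit left 1 group with 1 array, and neither lost power nor a divergent array was tested as the cause. The SD of the difference between replicates was 0.292 on the log2 scale at 1 h, 0.386 at 3 h, 0.495 at 6 h and 0.416 at 12 h.

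The largest measured rise was that of GI_42822885-S. Its normalised log2 signal was 9.77 and 9.43 on the A0 1 h arrays and 12.09 and 11.10 at 3 h. The 6 h arrays read 13.43 and 13.71, those of 12 h 13.90 and 14.22, in the order replicate 1, replicate 2. No array of a later time overlapped the arrays of any earlier time. The raw signal went from 789.4 and 892.2 at 1 h to 11744.7 and 24318.9 by 12 h. The 12 h level was 4.46 above that of 1 h on the log2 scale, or 21.9-fold (SE 0.319, limma adjusted p = 0.000887). Most of this distance was already covered at 6 h, which stood 3.96 above 1 h (adjusted p = 0.00935), but this did not pass when A0 1 h replicate 2 was dropped (adjusted p = 0.103). The final step from 6 h to 12 h was 0.49 (limma adjusted p = 0.568), and its size varied with the scaling. With 75th percentile centring 6 h and 12 h stood 4.00 and 4.69 above 1 h, and with the deposited values 4.12 and 4.97. With normexp they stood 3.89 and 4.38 above it. A smaller change after 6 h than before it did not pass its direct test (-3.47, limma adjusted p = 0.249).

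A rise from below detection was largest, by its lower bound, for GI_4506516-S. It read 4.78 and 4.88 at 1 h, where neither array detected it, and 4.91 and 5.26 at 3 h, where replicate 2 alone did. At 6 h it read 8.39 and 6.55, and at 12 h 8.83 and 8.82. The 12 h arrays lay above all others, and the 6 h arrays, though both detected, differed by more than any other pair of this probe. On the neqc scale the 12 h level was at least 10.1-fold that of 1 h. That bound holds for this background correction only, since the log2 difference was 2.59 with normexp and 2.25 with no background correction. The measured log2 difference of 3.99 had a limma adjusted p of 0.0055, which became 0.0567 and 0.0586 without A0 1 h replicate 1 and replicate 2.

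The largest measured fall was that of GI_34147344-S. Its log2 signal was 9.63 and 10.06 at 1 h and 9.12 and 9.29 at 3 h. At 6 h it stood at 8.80 and 7.21, at 12 h at 6.81 and 6.42, and all 8 arrays detected it. The level was lower at each later time with no overlap between times, and the 6 h arrays were again the pair farthest apart. It fell by 3.23 on the log2 scale from 1 h to 12 h, or 9.40-fold (SE 0.445, limma adjusted p = 0.00726). The call was lost without A0 1 h replicate 1 or replicate 2 (adjusted p = 0.0567 and 0.0717).

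Among probes that ended below detection, GI_27478738-S had the largest fall by its bound. It read 7.83 and 7.77 at 1 h and 6.19 and 6.57 at 3 h. The 6 h arrays gave 6.32 and 6.08, those of 12 h 4.65 and 5.38, where neither array detected it. Its 3 h and 6 h arrays overlapped, and both pairs lay between those of 1 h and 12 h. On the neqc scale the 12 h level was at least 4.36-fold lower than that of 1 h. That bound too holds for this background correction only, since the log2 difference was -1.67 with normexp and -1.40 with no background correction. With neqc the measured log2 difference of -2.79 had a limma adjusted p of 0.00155. In measured values 3 h minus 1 h was -1.42 (limma adjusted p = 0.537), and 6 h minus 3 h was -0.18 (adjusted p = 0.975). Each of the 4 named probes also passed the test for 12 h against 3 h, with limma adjusted p of 0.014, 0.014, 0.0232 and 0.0298 in the order above. Each of these 4 calls was lost without at least 1 of the 3 h or 12 h arrays, with an adjusted p of up to 0.123.

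**Figure D2:**
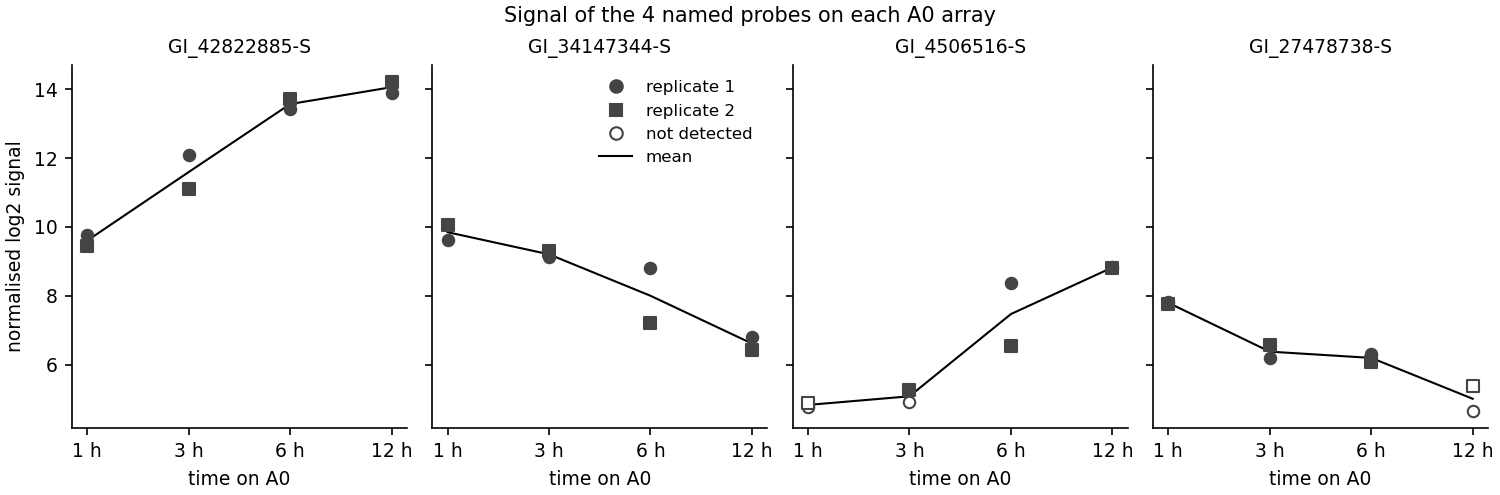
Normalised log2 signal of the 4 named probes on the 8 A0 arrays, with circles for replicate 1, squares for replicate 2, open symbols where the array did not detect the probe and a line through the means of 2 arrays; the times on the x axis are evenly spaced, not to scale. The mean of GI_42822885-S is 13.57 at 6 h and 14.06 at 12 h, while the 6 h arrays of GI_34147344-S and GI_4506516-S lie far apart.

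The steps between neighbouring times held few calls. From 1 h to 3 h limma called 0 of the 8199 probes (0%), with 294 below an unadjusted p of 0.05, a number that chance alone would put at 410. From 3 h to 6 h it also called 0 (0%), with 420 at an unadjusted p under 0.05. With a trended and robust variance the first of these counts was 1, and without A0 6 h replicate 2 the second was 7. From 6 h to 12 h, 9 probes were higher (0.110%) and 1 lower (0.0122%), 0.122% in all, with 992 at an unadjusted p under 0.05. Over longer spans there were 17 calls for 6 h against 1 h (0.207%), 12 higher (0.146%) and 5 lower (0.061%). For 12 h against 3 h there were 493 (6.01%), 226 higher (2.76%) and 267 lower (3.26%). A step with no calls does not show that nothing moved in it.

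These counts turned on single arrays. For 12 h against 6 h, dropping A0 6 h replicate 1 or replicate 2 turned the 10 calls into 19 or 76, dropping A0 12 h replicate 1 or replicate 2 into 2 or 5, and dropping any single array of 1 h or 3 h into 6. For 6 h against 1 h, dropping A0 1 h replicate 1 or replicate 2 turned the 17 into 3 or 0, and dropping A0 6 h replicate 1 into 37. Dropping 1 array of A0 12 h, whichever it was, gave 8, and 1 of A0 3 h gave 11. For 12 h against 3 h, dropping A0 3 h replicate 1 or replicate 2 turned the 493 into 18 or 12, and dropping A0 12 h replicate 1 or replicate 2 into 75 or 44. Dropping 1 array of A0 1 h gave 76, and 1 of A0 6 h gave 894. Centring on the 75th percentile gave 60 higher and 140 lower for 12 h against 3 h.

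The spread of effects beyond error gives the size of change over all probes without a threshold. To obtain it, the mean squared standard error is taken off the mean squared log2 difference and the square root follows. It was 0.598 on the log2 scale for 12 h against 1 h, and 0.087, 0.153 and 0.298 for the steps from 1 h to 3 h, 3 h to 6 h and 6 h to 12 h. The last step is also the longest in hours. The value for 1 h to 3 h was -0.081 with 75th percentile centring and as low as -0.172 with 1 array left out, where a negative sign marks differences smaller than their error.

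**Figure D3:**
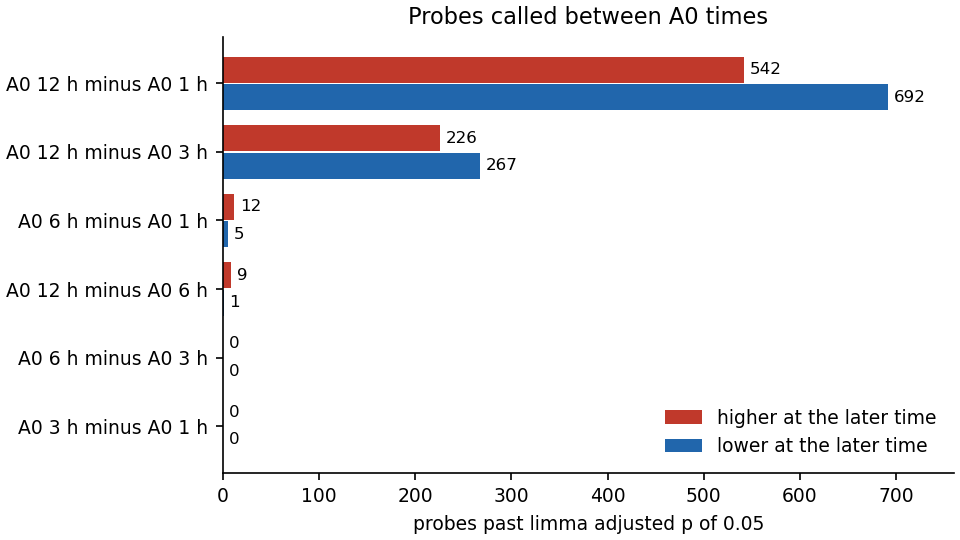
Bars give the number of the 8199 probes past a limma adjusted p of 0.05 for each pair of A0 times, red for higher and blue for lower at the later time. The 542 and 692 probes of 12 h against 1 h stand against 0 for both of the first neighbouring steps.

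The difference between 12 h and 1 h takes no level from the 3 h and 6 h arrays, but these arrays were normalised with the others and lent their spread to the calls. Dropping 1 of the 3 h arrays gave 981 calls and dropping 1 of the 6 h arrays 1715. The 542 higher probes had a median log2 signal of 6.47 at 1 h, 6.83 at 3 h, 7.16 at 6 h and 7.74 at 12 h. The 692 lower probes went from 7.57 to 7.30, 6.99 and 6.44. Both medians moved in the same direction at each step. For the 4 means of a probe in time order, 375 of the 542 (69.2%) rose at every step in measured value and 503 of the 692 (72.7%) declined at every step, where 15.2% and 17.7% of all tested probes did so. These shares are lifted by the choice of probes at both ends.

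The step from 3 h to 6 h shares no array with 12 h against 1 h. In it, 479 of the 542 higher probes (88.4%) were above their 3 h mean, with a median of 0.31 on the log2 scale, and 628 of the 692 lower probes (90.8%) were below it, with a median of -0.30. Over all tested probes 49.5% were above, with a median of -0.0021. Most of this rested on 1 of the 6 h arrays. On A0 6 h replicate 2 alone, 88.0% of the higher and 92.1% of the lower probes had moved on from the 3 h mean, against 72.3% and 69.2% on A0 6 h replicate 1. With the calls also remade without A0 6 h replicate 2, the share in the same direction was 61.4% of 1715 probes, against 89.7% of the 1234.

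**Figure D4:**
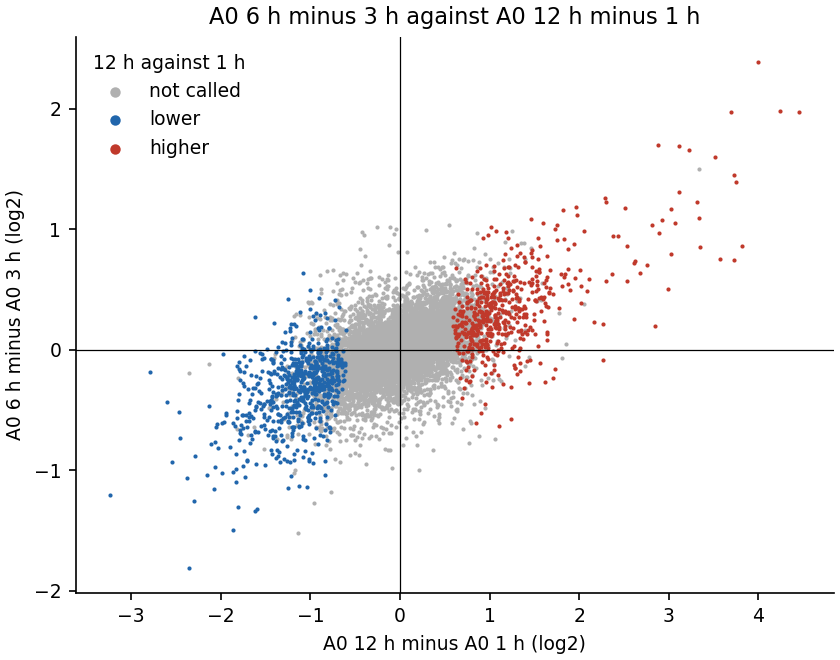
Each point is a tested probe, with A0 12 h minus A0 1 h on the x axis and A0 6 h minus A0 3 h on the y axis (both log2), red for the higher and blue for the lower probes of 12 h against 1 h. The axes share no array, and 88.4% of the red points lie above 0 and 90.8% of the blue points below it.

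By array, the higher probes had covered a median of 18.6% and 23.2% of their change from 1 h to 12 h on the 3 h arrays, in the order replicate 1, replicate 2. On the 6 h arrays the median was 40.1% and 63.0%. For the lower probes the medians were 20.4% and 20.0% at 3 h and 34.5% and 60.8% at 6 h. The 3 h arrays thus stood close together, and A0 6 h replicate 2 stood farther along than replicate 1 in both sets. At 6 h, 290 of the 542 higher and 314 of the 692 lower probes had a mean past the midpoint of their change, and 57 and 72 had passed it at 3 h. A direct test of whether the change after 6 h differed from the change up to 6 h called 0 of the 8199 probes in limma, with 291 below an unadjusted p of 0.05 against 410 from chance alone. That contrast has a median standard error of 0.386, against 0.223 for 12 h against 1 h.

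**Figure D5:**
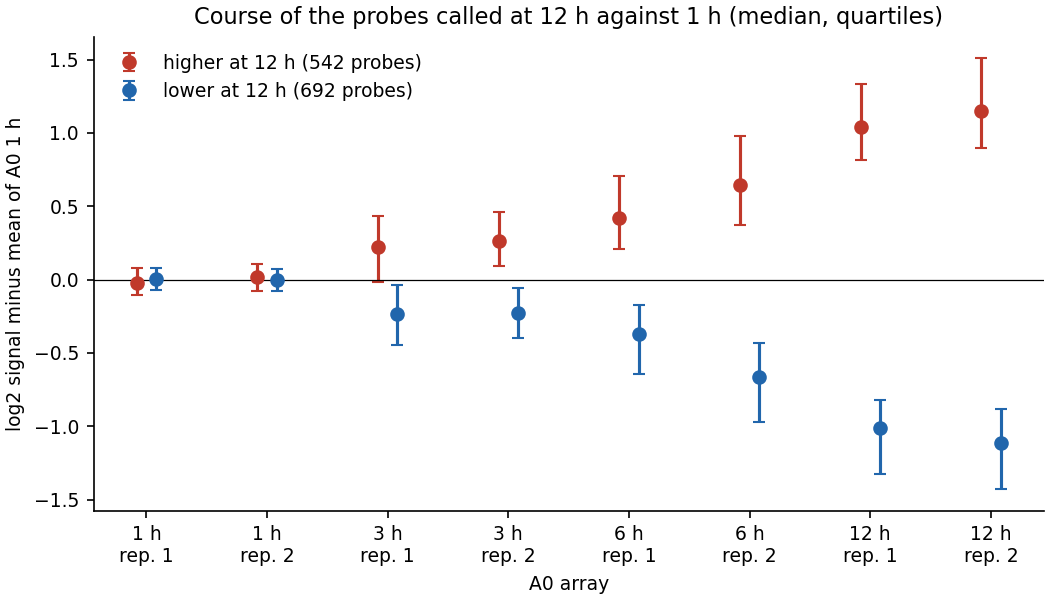
Log2 signal minus the A0 1 h mean on each of the 8 A0 arrays for the 542 probes higher (red) and 692 lower (blue) at 12 h against 1 h; points are medians over probes and bars the quartiles. The medians at 6 h are 0.42 and 0.64 for the higher probes and -0.37 and -0.66 for the lower ones, on replicate 1 and replicate 2.

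The distance between the 6 h arrays did not run one way through the higher probes. Of the 495 that rose less than 4-fold, 370 were higher on A0 6 h replicate 2 and 125 on replicate 1. Of the 19 that rose at least 8-fold, 11 were higher on replicate 1, 9 of them by more than 2-fold, and 8 were higher on replicate 2, 2 of them by more than 2-fold. The 47 that rose at least 4-fold were near balance, with replicate 2 ahead in 26 and replicate 1 in 21, and had covered a median of 57.9% of their change on replicate 1 and 56.2% on replicate 2. The 19 with at least 8-fold had covered a median of 73.2% of their change on replicate 1 and 40.6% on replicate 2. Of these 19, 6 were undetected on both 1 h arrays, as were 18 of the 47 and 79 of the 495. For those probes the starting level was below detection, so the share covered is uncertain. Among the 19 probes that fell at least 4-fold, replicate 2 was the lower array for 16. A0 6 h replicate 2 was also the brighter array, with a median raw signal of 130.7 against 108.1 and with 8948 probes detected against 7966. This was not particular to 6 h. Replicate 2 also detected more probes than replicate 1 at 1 h (9039 against 7970), 3 h (9640 against 7626) and 12 h (7978 against 7831). At 1 h, though, its median raw signal was the lower one, 101.4 against 118.1. The part of these array differences in the pattern was not tested.

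Gains and losses of detection come from the same signals as the folds, and the filter admitted these probes through the group where they were high, so their direction was fixed by the choice. On both 12 h arrays and neither 1 h array, 133 probes were detected, and 97 of them were called higher. On both 1 h arrays and neither 12 h array, 463 were detected, and 205 of them were called lower. Of the 133 gained probes, 15 were detected on both 3 h arrays and 25 on both 6 h arrays. Of the 463 lost probes, 214 were still detected on both 3 h arrays and 168 on both 6 h arrays, and 96 on neither 6 h array. The arrays detected 7970 and 9039 probes at 1 h and 7831 and 7978 at 12 h. These counts turned on every single array, and dropping an array also loosens the rule. Without A0 1 h replicate 2, 417 probes were gained and 617 lost, without A0 1 h replicate 1 the counts were 149 and 1127, and without A0 12 h replicate 1 and replicate 2 they were 398 and 702, and 371 and 749. For the 97 higher probes undetected at 1 h the lower bound of the rise had a median of 1.62-fold and was at least 2-fold for 26. For the 205 lower probes undetected at 12 h the median bound was 1.39-fold, and 28 reached 2-fold. For 9 of these 205 the bound gives no fold.

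The called probes were spread over all signal levels and probe types. Split into 4 equal bins by the mean log2 signal of the 3 h and 6 h arrays, 20.3% of the dimmest bin were called, 14.2% and 14.5% of the middle bins and 11.2% of the brightest. The higher probes made up 9.27% of the dimmest and 4.59% of the brightest bin, the lower probes 11.1% and 6.59%. A dim probe entered the test only by detection at 1 h or at 12 h, which favours probes that differ. The suffixes were read by the array maker's convention, which the files do not state. On that reading, 15.0% of the 6763 probes for genes with a single transcript were called, 14.3% of the 977 for all variants of a gene and 17.9% of the 459 for 1 of several variants. In that last group 50 were higher (10.9%) and 32 lower (6.97%), against 434 (6.42%) and 578 (8.55%) among single-transcript probes. No test of this difference was made. That group was also dimmer, with a median level on the 3 h and 6 h arrays of 6.92 against 7.45.

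Probe pairs on the same GI number, 1 with suffix A and 1 with suffix I, allowed a check within a record. Both members were tested for 60 of 732 such numbers. In 5 pairs both were higher, in 2 both were lower, in 10 only 1 member was called, in 43 neither was, and in 0 were the calls opposite. In 9 of the 10 split pairs the uncalled member differed in the same direction. The median distance between the members' log2 changes was 0.22, close to the median standard error of 0.223 of a single probe. Members of a pair share a target and are not independent.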

How the data were processed

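Per the file headers, every deposited array file gives each probe's intensity, averaged over its beads and linear in scale. Beside it, per the file headers, stands the authors' deposited detection score, a fraction from 0 to 1. The submitters' processing notes name BeadStudio 1.5.1.3. The authors also deposited a table of processed intensity values. In it each A0 array was a straight line of the scanner signal with a factor from 0.848 to 2.55, so its scale is linear. The column medians ran from 11.1 to 21.3 and no source used here names the normalisation method. It served as an alternative, with values floored at 16.

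The 8 A0 arrays were normalised together with neqc (limma 3.58.1, R 4.3.3), which infers background through the detection scores, uses 16 as offset, quantile normalises and takes log2. Fold changes are differences of these values. A probe was tested if detected at a score of at least 0.99 (a detection p of 0.01) on both arrays of A0 1 h or of A0 12 h. One linear model gave each group its mean (degrees of freedom 4 residual and 4.35 prior). The moderated test of limma covered 7 contrasts, each adjusted by Benjamini-Hochberg over the 8199 probes. The code was tested on simulated data. The number of arrays limits the precision. Per array, a probe had a median of 41 to 42 beads, and median raw signals ran from 93.5 to 130.7.

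Members, lists and rules were chosen with earlier results of these data known. Named probes were those called whose arrays did not overlap between 1 h and 12 h: the largest rise and fall among probes detected on all 4 arrays, and the largest by bound among those undetected at 1 h or 12 h. A bound sets the bright group's mean against the higher of the lowest detected signal and the probe's own signal on each dim array. Probe suffixes S, A and I were read as a single transcript, all variants and 1 variant, which the files do not state. Alternatives covered background, scaling, filter, variance model, array weights, a replicate block, the arrays modelled and leaving out each array. Centring over all probes and leaving out both 6 h arrays were chosen after seeing the data.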

Additional observations from a re-analysis of the deposited data

Results flagged for a closer look

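One of the probes for bacterial genes, lysA, which no comparison used, passed detection on A0 12 h replicate 2. Its raw signal there was 131.3, above the 122.1 and 96.7 of the control arrays. On the other 7 A0 arrays it was not detected, and on A0 12 h replicate 1 it read 84.9. On A0 6 h replicate 2 it read 125.6, also above both control arrays, with a detection score of 0.865. On A0 3 h replicate 2 it read 121.5, and its score of 0.988 was just under the cut of 0.99. Raw signals are not normalised between arrays, and A0 12 h replicate 2 was brighter overall than replicate 1, with a median of 119.4 against 93.5.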

How the results depend on the processing

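The count of 1234 probes stayed within 1.5 times under 10 of 14 alternatives. It was 482 with no detection filter, where 24350 probes were tested, 1870 with array weights, 744 with a 2-fold minimum and 1938 with a block for the replicate number. It was 35 to 1715 with 1 array left out. The 1715 probes without both A0 6 h arrays include the 1234. A close count did not always mean the same probes. Of the 1234, 782 were also called with 75th percentile centring, 897 with that centring over all probes and 961 with the deposited values. With normexp 1100 were shared, and with all 16 arrays 1142. For 3 h against 1 h a trended and robust variance called 1, and leaving out arrays 0 to 0. For 6 h against 3 h leaving out an array gave 0 to 7. For 12 h against 6 h the count was 0 with 75th percentile centring and with probes detected on all 4 arrays, 69 with all 16 arrays, 6 with no filter and 5 with array weights, and 2 to 76 with 1 array left out. For 6 h against 1 h it was 48 with normexp, 54 with no background correction, 83 with all 16 arrays, 5 with no filter, 10 with probes detected on all 4 arrays, 53 with the trended and robust variance and 43 with the replicate block, and 0 to 37 with 1 array left out. For 12 h against 3 h it was 200 with 75th percentile centring, 780 with all 16 arrays, 115 with no filter, 309 with probes detected on all 4 arrays and 1024 with the replicate block, and 12 to 894 with 1 array left out. The contrast of later against earlier change gave 5 with all 16 arrays and 0 to 0 with 1 array left out. The share moving the same way from 3 h to 6 h was 94.9% with 75th percentile centring, 92.5% with no filter, 91.9% with probes detected on all 4 arrays, 87.6% with array weights and 92.1% with the 2-fold minimum, and 61.4% to 100% with 1 array left out. The spread beyond error of 12 h against 1 h was 0.427 with normexp, 0.387 with no background correction, 0.754 with the deposited values, 0.366 with no filter and 0.523 with probes detected on all 4 arrays. With 1 array left out it was 0.564 to 0.652, and for the 3 neighbouring steps -0.172 to 0.184, 0.101 to 0.292 and 0.253 to 0.455. Gained probes numbered 149 to 417 and lost probes 617 to 1127 with 1 array left out. The differences between replicates correlated between times at 0.0969 to 0.395, all above 0. With 2 replicate numbers and no label that ties them to a shared source, this does not settle a pairing, and the block is an alternative only. No direction of the 4 named probes reversed. They were chosen for large changes without overlap between 1 h and 12 h, so this gives no separate support for that comparison. The cause of these shifts was not tested, and some settings also bring fewer arrays or other probe numbers. With only the 4 arrays of 1 h and 12 h in the model, the steps could not be fitted.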

Other observations

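The same probes were read on the cisplatin arrays, none of which entered the comparison, with all 16 arrays normalised together. The times differ, since cisplatin has no 1 h arrays, so the values stand side by side only. Of the 542 probes higher at 12 h of A0 than at 1 h, 351 (64.8%) were higher at 12 h of cisplatin than at 3 h, with a median of 0.18 on the log2 scale. Of the 692 lower probes, 433 (62.6%) were lower, with a median of -0.18. Over all 8199 probes 50.03% were higher, with a median of 0.00011. Among the named probes, the cisplatin difference was -3.43 for GI_42822885-S, 0.49 for GI_4506516-S, -0.019 for GI_34147344-S and -0.66 for GI_27478738-S, with no test made.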
